A study of Mus musculus with 4 samples.

Results

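Chromatin accessibility around the Hox cluster genes was examined in newborn mouse hearts. The members were the 38 Hox genes listed for this work, 10 in cluster a on chromosome 6, 10 in cluster b on chromosome 11, 9 in cluster c on chromosome 15 and 9 in cluster d on chromosome 2. A Hox region was any stretch of called open chromatin within 5 kb of the body of such a gene, after overlapping peaks of all libraries had been merged. By this rule 28 of the 53140 merged regions were Hox regions, against 38861 within 5 kb of any of 21631 protein-coding genes. The assay was ATAC-seq, in which the transposase Tn5 cuts and tags open DNA, and the authors called peaks in each library separately. There were 4 libraries of whole C57BL/6 hearts at postnatal day 0, each from nuclei of 1 heart: wild type (WT 1 and WT 2) and edKO (edKO 1 and edKO 2). The edKO newborns lacked a pair of nuclear receptors, RXR alpha with RXR beta, in cardiomyocytes only, and what drove the deletion is not given in the sources used here. No treatment of the mice is labelled for either group. The heart also holds endothelial cells, fibroblasts, epicardium, blood and nerve cells, outside the labelled deletion, so fewer cells with an open site and less opening per cell cannot be told apart.

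Hox genes encode homeodomain transcription factors that give body segments their identity along the head-to-tail axis. Within a cluster the genes lie in the order of their expression domains: low-numbered genes at the 3′ end act toward the head and early, and high-numbered genes at the 5′ end act toward the tail and late. Retinoic acid, whose receptors bind DNA as partners of the retinoid X receptors (RXR), activates the 3′ genes during embryogenesis. In the heart, 3′ Hox genes mark early progenitors of the atria and outflow tract and the neural crest that enters the arterial pole. Silent clusters are covered by Polycomb repressive chromatin over long stretches.

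Library quality is given first, and its part in the counts below was not tested. The deposited lists held 35279, 38809, 27473 and 27142 peaks for WT 1, WT 2, edKO 1 and edKO 2, the order of every list of 4 values below. Enrichment was lowest in edKO 2, whose 10000 top peaks had a median fold enrichment of 7.61, against 10.8, 11.5 and 10.2 in WT 1, WT 2 and edKO 1. The lowest local background, a measure of relative depth, was 1.81, 1.80, 1.51 and 1.92 fragments, so edKO 2 joined the highest background to the weakest peaks. Cardiac identity was read at gene ends: 6 of 8 cardiomyocyte markers (Tnnt2, Ryr2, Myh6, Myh7, Actc1 and Nppa) had a peak within 1 kb of a gene end in all 4 libraries, as did 2 of 3 epicardial, 1 of 4 endothelial and 1 of 4 fibroblast markers. Nkx2-5, a defining cardiac factor, had none. The other markers called in all 4 libraries were 0 of 4 for blood, 0 of 3 for skeletal muscle, 1 of 2 for lung (Sftpc), 0 of 2 for liver and 0 of 2 for thymus. By library, skeletal muscle markers gave 2, 1, 0 and 0 calls of 3, blood markers 1, 2, 0 and 0 of 4 and fibroblast markers 2, 3, 1 and 1 of 4, each with more in both WT hearts than in either edKO heart. Cardiomyocyte markers gave 6, 6, 6 and 7 of 8 and endothelial markers 1, 2, 2 and 2 of 4. Epicardial and lung markers were even, at 2 of 3 and 1 of 2 in each library. Of all protein-coding genes, 54.0%, 55.3%, 51.1% and 51.8% had such a peak. The part of these cell types in the Hox calls was not tested.

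Few of the listed Hox promoters lay under a called peak. The RefSeq promoter table (GRCm38.p6, 250 bases before to 50 after each gene start) matched 22 of the 38 members with 24 promoters, and 16 members were not in it. Of cluster b only Hoxb1, Hoxb4 and Hoxb8 were in it, and of cluster c only Hoxc4, so the promoter counts rest mainly on clusters a and d. Hoxa4 and Hoxc10, each with a region upstream of its start that edKO 1 called, were among the missing. A peak touched 6 of the 24 in at least 1 library (25.0%), against 41.1% of all 32619 promoters, and 0 of 24 in all 4 libraries, against 31.2%. Their sequence was richer in G+C and CpG than that of other promoters: the median G+C content was 57.7%, against 53.0% for all, and the median CpG ratio, the observed over the expected number of CpG dinucleotides, was 0.626 against 0.387. Of the 12 Hox promoters with a CpG ratio of at least 0.6, 4 were touched in at least 1 library (33.3%), against 85.7% of 11757 such promoters in the genome, and 0 in all 4 libraries, against 72.6%. The 12 CpG-poor Hox promoters, with 2 called (16.7%), were close to the 15.9% of CpG-poor promoters in general. The lower share was thus seen among the CpG-rich Hox promoters. These counts are descriptions with no test. Of all CpG-rich promoters, 81.0%, 81.6%, 77.6% and 77.8% were called in the 4 libraries. Per library, 1, 2, 0 and 5 of the 24 listed Hox promoters were called. Hoxd1 and Hoxd9 were each called in WT 2, whose peaks covered all 300 bases, and in edKO 2, whose peaks covered 206 and 200 of them. Hoxa13 (248 bases), Hoxd13 (111) and Hoxc4 (53) were called in edKO 2 alone, and Hoxd11 (33 bases at 1 of its 2 listed promoters) in WT 1 alone.

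The 250 bases before the start of 6 promoters are printed 5′ to 3′ on the gene's strand. They show the 4 gene starts that lay under a merged region (Hoxd1, Hoxd9, Hoxd13 and Hoxa13) beside 2 that no library called, Hoxa5 with the highest CpG ratio of the Hox promoters (1.02) and Hoxd4, a CpG-poor promoter with receptor motifs. Capitals mark every match, on either strand, to the nuclear receptor core motif AGGTCA and its variants with AGTTCA, with GGGTCA or with GGTTCA, to the Pbx-Hox motif TGATNNAT, the homeodomain motif TAATTA, the CCAAT box, the TATAAA box and the GC box GGGCGG. A match on the opposite strand reads as its reverse complement, such as CCGCCC for GGGCGG, and adjacent or overlapping matches run together.
Hoxd1 (chr2:74762730-74762979, + strand): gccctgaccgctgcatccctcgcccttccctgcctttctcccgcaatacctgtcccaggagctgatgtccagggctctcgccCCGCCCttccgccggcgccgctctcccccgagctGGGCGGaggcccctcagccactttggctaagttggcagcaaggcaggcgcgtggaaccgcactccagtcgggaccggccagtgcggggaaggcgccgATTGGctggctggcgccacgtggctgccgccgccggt
Hoxd9 (chr2:74697513-74697762, + strand): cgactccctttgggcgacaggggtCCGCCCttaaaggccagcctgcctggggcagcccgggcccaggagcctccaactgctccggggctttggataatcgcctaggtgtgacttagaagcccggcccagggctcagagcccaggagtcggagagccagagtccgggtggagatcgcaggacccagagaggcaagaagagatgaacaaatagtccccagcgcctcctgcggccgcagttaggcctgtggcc
Hoxd13 (chr2:74667975-74668224, + strand): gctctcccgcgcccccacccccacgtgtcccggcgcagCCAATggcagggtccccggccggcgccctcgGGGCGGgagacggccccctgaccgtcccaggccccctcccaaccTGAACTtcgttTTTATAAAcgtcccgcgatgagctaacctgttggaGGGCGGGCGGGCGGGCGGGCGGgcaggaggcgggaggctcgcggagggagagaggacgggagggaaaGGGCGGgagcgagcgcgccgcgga
Hoxa13 (chr6:52260881-52261130, - strand): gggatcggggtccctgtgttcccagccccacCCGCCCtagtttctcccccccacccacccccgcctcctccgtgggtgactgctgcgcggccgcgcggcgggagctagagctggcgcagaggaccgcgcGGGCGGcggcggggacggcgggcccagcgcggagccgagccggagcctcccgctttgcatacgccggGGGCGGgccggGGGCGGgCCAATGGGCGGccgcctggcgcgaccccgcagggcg
Hoxa5 (chr6:52204588-52204837, - strand): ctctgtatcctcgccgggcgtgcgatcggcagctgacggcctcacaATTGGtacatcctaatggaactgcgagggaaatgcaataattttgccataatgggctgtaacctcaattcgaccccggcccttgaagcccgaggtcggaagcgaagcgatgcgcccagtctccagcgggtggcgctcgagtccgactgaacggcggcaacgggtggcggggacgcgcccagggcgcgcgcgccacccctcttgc
Hoxd4 (chr2:74721728-74721977, + strand): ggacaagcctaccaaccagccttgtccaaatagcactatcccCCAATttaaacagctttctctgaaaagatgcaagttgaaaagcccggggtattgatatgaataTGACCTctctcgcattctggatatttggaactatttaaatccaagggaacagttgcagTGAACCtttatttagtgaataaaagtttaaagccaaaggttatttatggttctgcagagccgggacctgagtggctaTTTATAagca
The called starts of Hoxd13 and Hoxa13 were rich in the GC box, which Sp-family factors bind, with 7 and 6 matches over the 300 bases, and Hoxd1 and Hoxd9 had 2 each. The uncalled Hoxa5 and Hoxd4 had none, but the uncalled Hoxa6 had 5, so the count did not separate called from uncalled promoters. Of these 6, the capitals show a receptor core motif in Hoxd13 and Hoxd4 only. The uncalled Hoxa5 also held AGGTCA, in the 50 bases after its start that are not printed.

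Over all 24 Hox promoters, AGGTCA occurred in 7 (29.2%, against 16.2% of all promoters), AGTTCA in 2 (8.33% against 13.9%), GGGTCA in 1 (4.17% against 13.8%) and GGTTCA in 3 (12.5% against 10.4%). Direct repeats of these core motifs, spaced by 1, 2 or 5 bases (DR1, DR2 and DR5) as RXR dimers bind them, occurred in 0 of 24, against 0.224%, 0.270% and 0.0981% of all promoters. TGATNNAT occurred in 4 (16.7% against 8.79%), TAATTA in 2 (8.33% against 5.25%), CCAAT in 15 (62.5% against 37.6%), TATAAA in 4 (16.7% against 13.7%) and GGGCGG in 10 (41.7% against 35.9%). These matches describe the letters of the windows, not bound sites.

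On the full lists, the number of Hox regions did not differ between the genotypes beyond the spread of the hearts. The called Hox regions numbered 11 and 15 in the WT hearts and 9 and 19 in the edKO hearts. The edKO libraries were the lowest and the highest of the 4, so the groups overlapped. With every list shortened to the length of the shortest, the overlap was lost: 6 and 7 regions in WT against 10 and 20 in edKO, a difference of -8.5 (exact permutation p = 0.333). The cut took the weakest peaks, most of them from the longer WT lists, and Hox peaks ranked low in every list. The edKO counts rose from 9 and 19 with no peak added, as fewer WT peaks were left to join neighbouring peaks. On the full lists, the means were 13 ± 2.83 regions in WT and 14 ± 7.07 in edKO (SD, n = 2 each), a difference of -1 region, WT minus edKO (exact permutation test, two-sided, p = 1). With 2 hearts against 2, that test cannot give a p below 0.333. The bases under Hox peaks came to 2899 and 4516 in WT and 2450 and 5020 in edKO, or 3707.5 ± 1143 against 3735 ± 1817 bp (SD, n = 2 each, exact permutation p = 1).

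Relative to the length of the list, edKO 2 stood apart. Hox peaks numbered 11, 15, 10 and 20, which was 0.312, 0.387, 0.364 and 0.737 per 1000 peaks of the list. The group means were 0.349 ± 0.0528 and 0.550 ± 0.264 (SD, n = 2 each, difference -0.201, exact permutation p = 0.667). The other edKO heart lay between the WT hearts on the full lists. With lists of equal length it lay above both, at 0.368 against 0.221 and 0.258 in WT, and edKO 2 at 0.737 (difference -0.313, exact permutation p = 0.333). Hox peaks with a −log10 p of at least 10 ran the other way, with 4, 5, 2 and 0. Over the whole lists, 58.0%, 58.1%, 54.6% and 41.9% of peaks reached that level, the lowest share again in edKO 2. Per 1000 peaks at that level, Hox peaks came to 0.196, 0.222, 0.133 and 0. The difference in regions turned to 3.5 in favour of WT (exact permutation p = 0.333), and each of the 20 Hox peaks of edKO 2 was below that level. Without edKO 2, the difference was 3 regions in favour of WT.

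**Figure D1:**
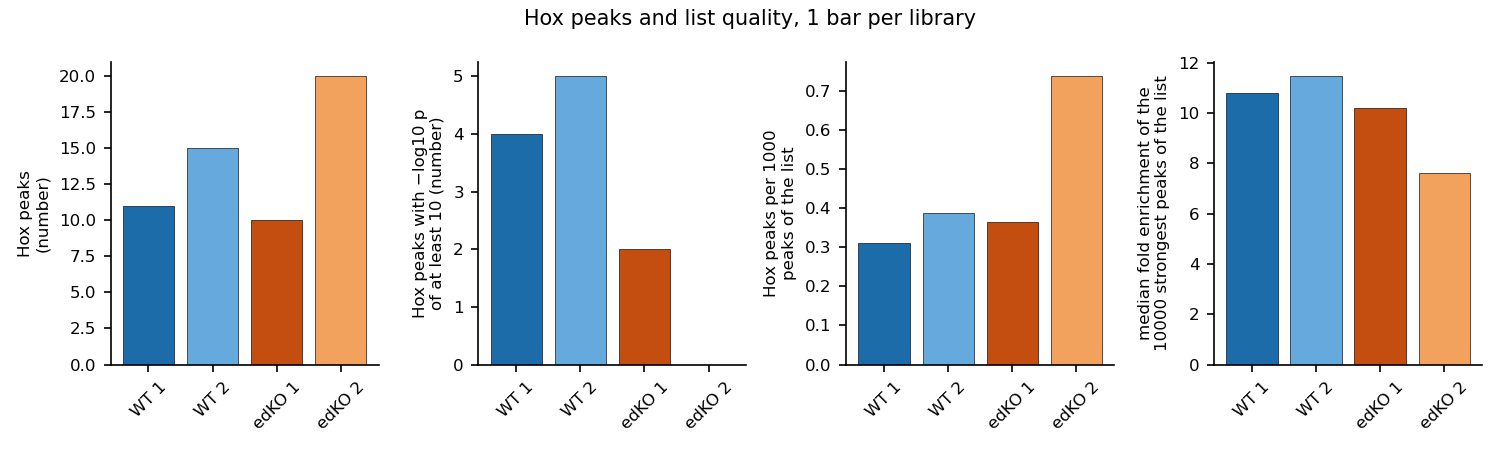
Bars give, for each of the 4 libraries, the number of Hox peaks, the number with a −log10 p of at least 10, the number per 1000 peaks of the list, and the median fold of its 10000 top peaks over local background. edKO 2 had the most Hox peaks (20), none of them at −log10 p of 10 or more, and the lowest enrichment (7.61).

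Hox peaks ranked low in their lists, and a small share of the Hox regions was called in all hearts. Only 3 of the 28 were called in all 4 libraries (10.7%), against 36.4% of regions within 5 kb of any protein-coding gene. In 1 library alone, 13 were called (46.4%, against 35.5%): 1, 4, 1 and 7 by library. The 7 of edKO 2 were 25.0% of the Hox regions, against 9.6% of regions near genes. Another 7 were called in 2 libraries and 5 in 3. Hox peaks had median −log10 p values of 7.54, 6.99, 6.65 and 5.32, below the list medians of 11.9, 12.1, 11.02 and 8.54. The median number of fragments stacked at the summit (the pileup, recovered from the fold and −log10 p) was 16, 13, 12 and 12 at Hox peaks, against 24, 22, 19 and 18 in a sample of each list. The strongest Hox peak stood at the 62.0th percentile of its list and none passed the 75th, which 24.2% of regions near genes did in some library. Width was likewise modest, with a median of 295.5 bp (200 to 1040) against 360 bp near genes in general.

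Read beside regions of the same range of strength, the shares lay nearer to each other. Of the 24930 regions near genes with no peak above the strongest Hox percentile, 7.89% were called in all 4 libraries and 55.1% in 1, close to the 10.7% and 46.4% of Hox regions. In edKO 2 the shares lay far apart: that heart called 67.9% of Hox regions and 32.4% of those regions. The other hearts called 39.3%, 53.6% and 32.1% of Hox regions in WT 1, WT 2 and edKO 1, against 51.0%, 60.6% and 30.6%. This is a description of 4 libraries in which neighbouring Hox regions share a cluster, and the part of list quality or of cell composition in it was not tested.

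**Figure D2:**
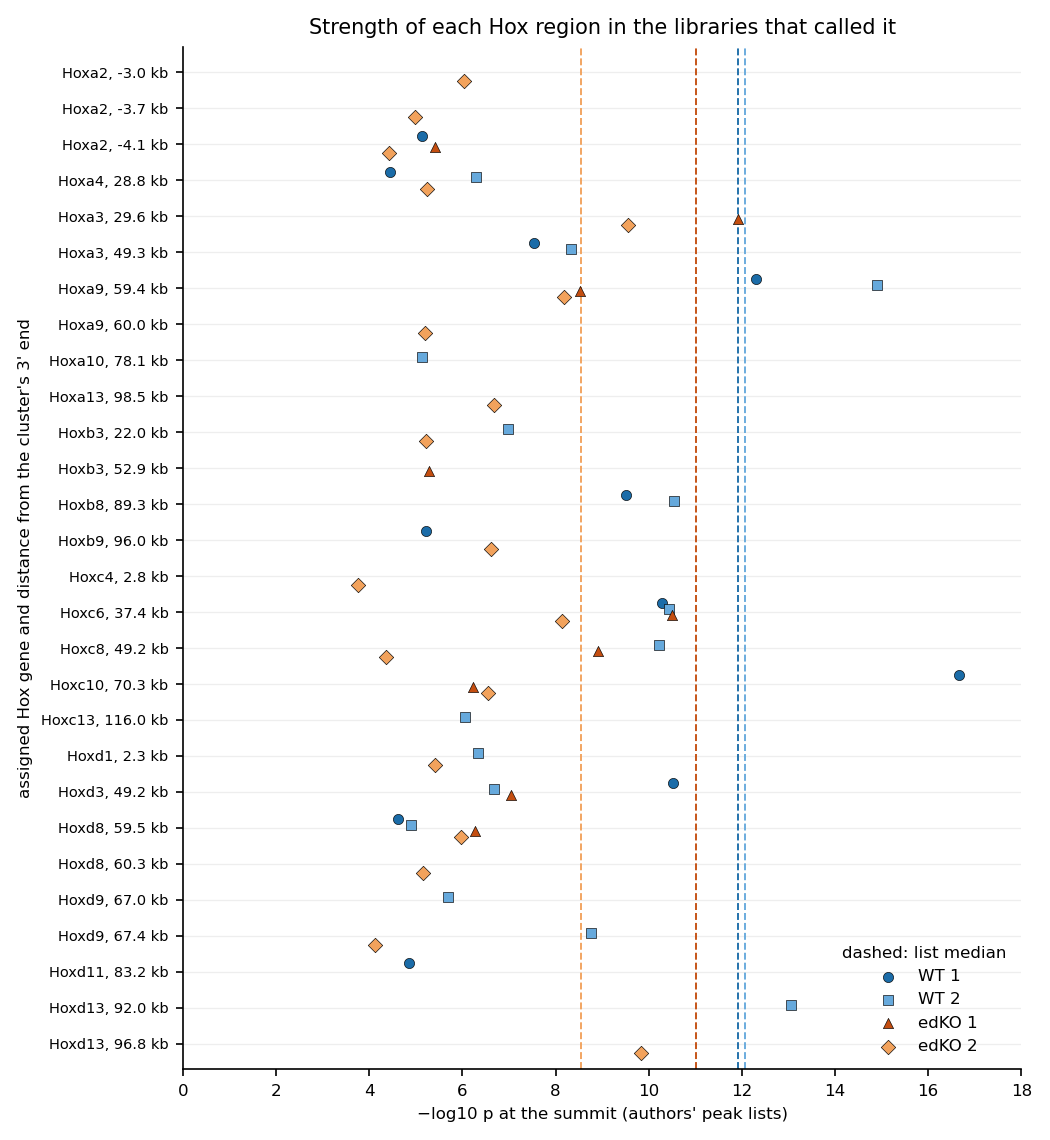
Each row is a Hox region, named by the gene it was assigned to and its distance from the 3′ end of the listed cluster (below 0 for regions beyond it), and each symbol is the −log10 p of a library that called it. Dashed lines mark the medians of the 4 whole lists; most Hox values lie to the left of their library's line, and the highest is 16.7 at Hoxc10 in WT 1.

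Few regions were called in both hearts of a single genotype. Of 7 Hox regions called in both WT hearts, 2 were called in neither edKO heart (28.6%, against 16.6% of regions near genes and 39.9% in the same range of strength). Of 7 called in both edKO hearts, 1 was called in neither WT heart (14.3%, against 1.12% and 6.40%). With 7 regions each, a single region is 14.3 percentage points. With all lists shortened to the length of the shortest, the WT-only count was 2 of 4 and the edKO-only count 4 of 8, and at a −log10 p of at least 10 they were 1 of 2 and 0. The shares over all regions near genes were not computed at these settings. The shortening removed the WT peaks inside Hoxd8, at percentiles 1.75 and 3.83, in a region that all 4 hearts called on the full lists. The edKO-only count of the shortened lists thus includes sites with WT calls on the full lists. An absent call means only that the site stayed below the authors' threshold in that list.

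Cluster a (chr6:52162417-52260880, minus strand) held 10 regions, of which WT 1 called 4, WT 2 4, edKO 1 3 and edKO 2 8. Its strongest was also the strongest of all 28 by mean percentile, 339 bp between Hoxa7 and Hoxa9 (chr6:52221660-52221998) and outside the members' gene bodies, 1099 bp beyond the 3′ end of Hoxa9, a regulator of blood stem cells. All 4 hearts called it, at −log10 p of 12.3, 14.9, 8.52 and 8.18. The pileups were 23 and 24 fragments in WT and 15 and 16 in edKO, so the WT values were higher without overlap, in lists where the median pileup was 24, 22, 19 and 18. Such values scale with depth and enrichment, and they give no test of the region. A weaker region next to it (chr6:52222308-52222562) was called in edKO 2 alone, at 5.20.

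The only edKO-only Hox region lay next to Hoxa4, a gene of the neck level. It spanned 426 bp (chr6:52191816-52192241), over the long Hoxa3 gene body, with its midpoint at -326 bp from the Hoxa4 start, that is, upstream of it. edKO 1 called it at −log10 p 11.9 (pileup 16 over a background of 1.56) and edKO 2 at 9.56 (pileup 15 over 1.92). It was the strongest Hox peak of edKO 1 and the runner-up in edKO 2. The same gene carried a region inside its body (chr6:52191028-52191496, midpoint 441 bp after the start), called in WT 1 at 4.44, in WT 2 at 6.29 and in edKO 2 at 5.24, with pileups of 9, 11 and 10. All 4 hearts thus had a peak within 1 kb of the Hoxa4 start, at different positions: inside the gene in both WT hearts, upstream in edKO 1 and at both sites in edKO 2.

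The WT-only region of cluster a lay 1350 bp inside Hoxa3 (chr6:52211570-52211863), whose product patterns the pharyngeal arch that forms thymus and parathyroid. WT 1 called it at −log10 p 7.54 and WT 2 at 8.32, with 16 fragments in each. At the 5′ end, the start of Hoxa13, a gene of digits and the urogenital tract, lay under a region of 351 bp (chr6:52260728-52261078), called in edKO 2 alone at 6.67 with 13 fragments. Hoxa10, needed in the uterus, had a region 354 bp after its start (chr6:52240400-52240599), called in WT 2 alone at 5.12. The other 3 regions lay 2927 to 3967 bp beyond the 3′ end of Hoxa2, outside the members' gene bodies; 1 was called in WT 1, edKO 1 and edKO 2 and 2 in edKO 2 alone, at −log10 p of 4.43 to 6.04. Without these 3, the mean number of Hox regions was 0.5 higher in WT than in edKO. Hoxa5, which acts in lung development, was the only gene of the cluster with no region within 5 kb.

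Cluster b (chr11:96194316-96368254, plus strand) was the emptiest, with 4 regions over 10 genes, of which WT 1 called 2, WT 2 2, edKO 1 1 and edKO 2 2. None was called in all 4 hearts. The strongest was the other WT-only Hox region, upstream of Hoxb8, a gene known in myeloid progenitors (chr11:96278821-96279117, midpoint at -432 bp from the start in the gene table). WT 1 called it at −log10 p 9.51 and WT 2 at 10.5, with 16 and 17 fragments, and neither edKO heart called it. The promoter table starts Hoxb8 at a site further into the gene, and that promoter was not called. A region inside Hoxb9 (chr11:96272124-96272446) was called in WT 1 at 5.22 and in edKO 2 at 6.62. Hoxb3 held a region near its 3′ end (chr11:96346178-96346395) called in WT 2 at 6.99 and edKO 2 at 5.22, and another (chr11:96315259-96315458) called in edKO 1 alone at 5.29. No region lay within 5 kb of Hoxb1, Hoxb2, Hoxb5, Hoxb6, Hoxb7 or Hoxb13, the last standing apart from the others at the 5′ end. From its start to the region in Hoxb9, 77.8 kb held no Hox region. Regions more than 5 kb from a member's body, where much of this stretch lies, were not counted.

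Cluster c (chr15:102921131-103036856, plus strand) had 5 regions, and WT 1 called 2, WT 2 3, edKO 1 3 and edKO 2 4 of them. The region inside Hoxc6, a gene of the thoracic level, was the most even of the 3 called in all hearts (chr15:102999225-102999761, midpoint 1267 bp after the start). Its −log10 p values were 10.3, 10.4, 10.5 and 8.15, with 19, 19, 18 and 17 fragments, and its percentiles ran from 43.2 to 48.1. The region just upstream of Hoxc10 (chr15:102966354-102966779), a gene of the lumbar level, ended 17 bp before the gene body. It gave the highest Hox value of the series in WT 1, 16.7 with 25 fragments, values of 6.22 and 6.54 in edKO 1 and edKO 2 with 10 and 13 fragments, and no call in WT 2. The 2 WT hearts were thus the extremes at this site. A region between Hoxc8 and Hoxc9 (chr15:102987530-102987758) was called in WT 2, edKO 1 and edKO 2 at 10.2, 8.91 and 4.37, with 18, 15 and 10 fragments.

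The remaining regions of cluster c were single calls. A region upstream of Hoxc13, a gene of hair and nails (chr15:102920723-102920922, midpoint at -308 bp from the start), was called in WT 2 at 6.06, and a region inside Hoxc4 (chr15:103033998-103034197) in edKO 2 at 3.75 with 8 fragments, the weakest Hox region by mean percentile. Hoxc5, Hoxc11 and Hoxc12 had none. The 45.2 kb from the start of Hoxc13 to the region before Hoxc10, which hold Hoxc11, Hoxc12 and Hoxc13 whole, held no Hox region. A part of this stretch lies more than 5 kb from a member's body, and regions there were not counted.

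Cluster d (chr2:74668225-74765142, plus strand) had 9 regions, of which WT 1 called 3, WT 2 6, edKO 1 2 and edKO 2 5. The widest Hox region, 1040 bp inside Hoxd8 (chr2:74705074-74706113), was called in all 4 hearts. It was weak in each, at −log10 p 4.61, 4.90, 6.27 and 5.97 with 11, 11, 12 and 12 fragments, and it merged 1, 1, 2 and 2 peaks. Its WT peaks stood at percentiles 1.75 and 3.83 of their lists and were lost when the lists were cut to equal length. A region 3960 bp inside Hoxd3 (chr2:74715760-74716146), a gene of the neck vertebrae, was called in WT 1, WT 2 and edKO 1 at 10.5, 6.67 and 7.04, with 16, 13 and 12 fragments, and not in edKO 2. From there to Hoxd1, 46.5 kb held no Hox region, though any region more than 5 kb from a member's body was not counted. This stretch included the whole of Hoxd4, the only gene of cluster d with no region within 5 kb.

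The 5′ end of cluster d is known for its part in limb and genital development. The start of Hoxd13 lay under a region (chr2:74668164-74668429) called in edKO 2 alone, at 9.83 with 17 fragments, the strongest Hox peak of that list. Between Hoxd13 and Hoxd12, a region (chr2:74673042-74673334, midpoint at -1825 bp from the Hoxd12 start) was called in WT 2 alone at 13.1 with 20 fragments. These strong single calls came from the 2 hearts with the most Hox regions. The start of Hoxd9 lay under a region (chr2:74697501-74697884) called in WT 2 at 8.76 and in edKO 2 at 4.12, and the start of Hoxd1 under one (chr2:74762696-74763086) called in WT 2 at 6.33 and in edKO 2 at 5.41, with 11 fragments in each. The WT 2 peaks covered these 2 promoters, printed above, whole, while the edKO 2 peaks ended before the start of each gene. The other regions were single calls: inside Hoxd9 in WT 2 (chr2:74697992-74698235, 5.70), inside Hoxd11 in WT 1 (chr2:74681879-74682105, 4.85) and inside Hoxd8 in edKO 2 (chr2:74704738-74704937, 5.14).

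**Figure D3:**
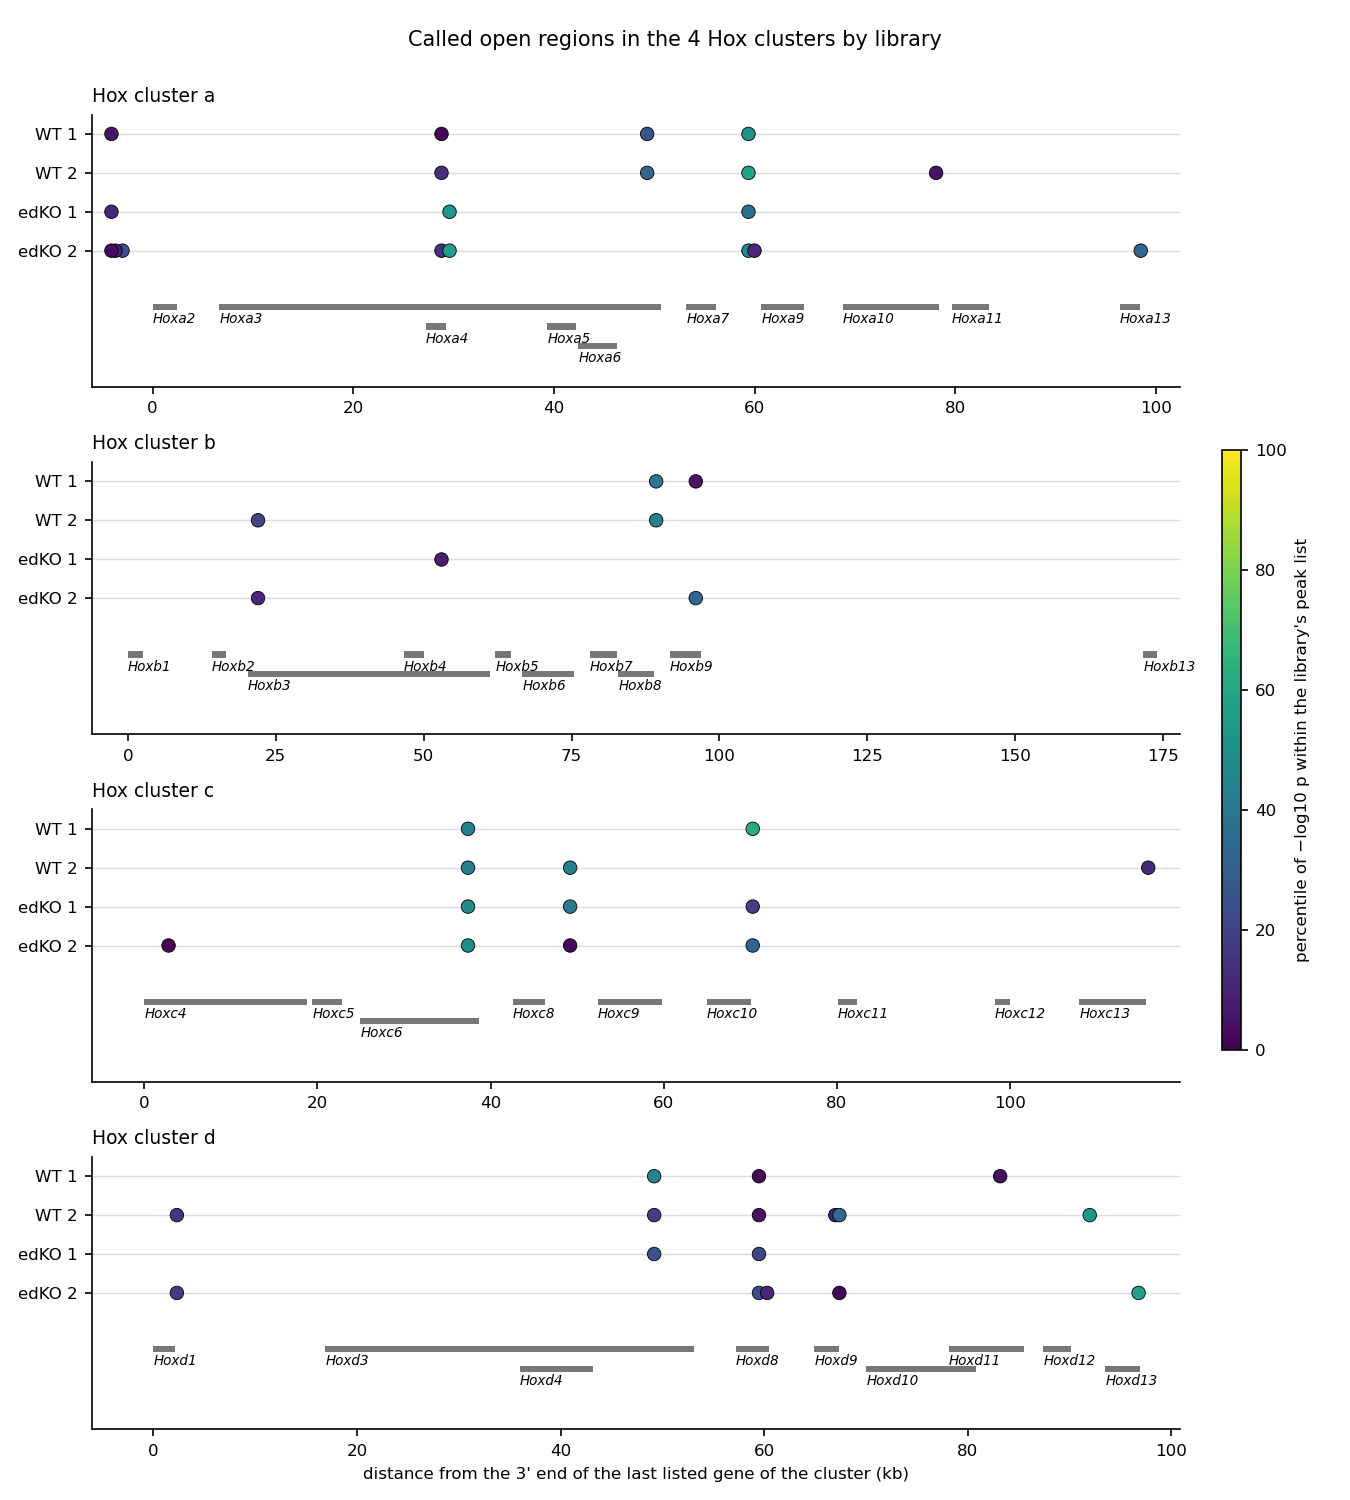
Each panel is a cluster drawn from its 3′ end at the left, with gene bodies as grey bars and called regions as points, 1 row per library, coloured by the percentile of the −log10 p within that library's list. Regions were sparse in cluster b (4) and denser in clusters a (10) and d (9), and no point exceeds the 62.0th percentile.

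By the paralog number of the assigned gene, 2 of the 3 regions shared by all hearts belonged to paralog groups 4 to 8. These were the Hoxc6 region and the weak Hoxd8 region. The other, between Hoxa7 and Hoxa9, went to groups 9 to 13 by its distance to the Hoxa9 body, though the nearest gene start was that of Hoxa7. So few regions show no trend by position. The 7 genes of groups 1 to 3 had 9 assigned regions, 3 of them the regions beyond the 3′ end of Hoxa2, with 3, 4, 4 and 6 called by library and 0 in all 4. The regions of the long Hoxa3, Hoxb3 and Hoxd3 bodies did not lie at the 3′ end. Their distances from it were 29.6 and 49.3 kb (Hoxa3), 22 and 52.9 kb (Hoxb3) and 49.2 kb (Hoxd3). The region at 29.6 kb is the edKO-only one upstream of Hoxa4. The 15 genes of groups 4 to 8 had 7 regions, with 4, 5, 3 and 6 called and 2 shared by all 4. The 16 genes of groups 9 to 13 had 12 regions, with 4, 6, 2 and 7 called, 1 shared by all 4 and 8 called in a single library. In each of these 3 sets of genes edKO 2 called the most regions, and in none did the WT and edKO hearts separate. Of the 4 regions that contained a gene start, 3 belonged to groups 9 to 13 (Hoxa13, Hoxd9 and Hoxd13) and 1 to groups 1 to 3 (Hoxd1).

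Per kb of window, regions were no sparser around the Hox genes than around other genes. The Hox windows were denser in genes, with 38 in 444.843 kb against 21631 in 1177240 kb. Per gene the order was reversed, with 28 regions for 38 genes against 38861 for 21631. The windows around the 38 genes spanned 444.843 kb and held 6.29 regions per 100 kb, with 9.49 in cluster a, 3.40 in b, 4.18 in c and 8.81 in d, against 3.30 around all protein-coding genes. Peaks covered 0.652%, 1.02%, 0.551% and 1.13% of the Hox windows, against 1.02%, 1.08%, 0.761% and 0.786% of all gene windows. Coverage was thus below that of genes in general in WT 1, WT 2 and edKO 1 and above it in edKO 2. Of the 38 genes, 27 had a region within 5 kb (71.1%, against 72.9% of protein-coding genes), but neighbours in a cluster share regions.

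At gene ends, the share of Hox genes with a peak was lower than that of all genes. A peak lay within 1 kb of a gene end in all 4 libraries for 2 of the 38 Hox genes, Hoxa4 and Hoxd8 (5.26%, against 46.8% of protein-coding genes), and in at least 1 library for 13 (34.2%, against 59.6%). Per library the counts were 5, 8, 3 and 9 of 38. Among genes for the partner proteins of Hox factors, 7 of 9 Pbx, Meis and Pknox genes had such a peak in all 4 libraries, with Meis3 without a call and Meis2 called in some. Among other homeobox genes, 4 of 6 Iroquois genes did (Irx1, Irx3, Irx4 and Irx5; Irx4 is a ventricular factor), at 17.2 regions per 100 kb, while 0 of 6 ParaHox genes, the relatives of Hox genes that pattern gut and brain, did, at 3.89. Cdx1, Cdx4 and Pdx1 had no gene end peak in any library. The lists are small and were read by count, with no test between them.

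**Figure D4:**
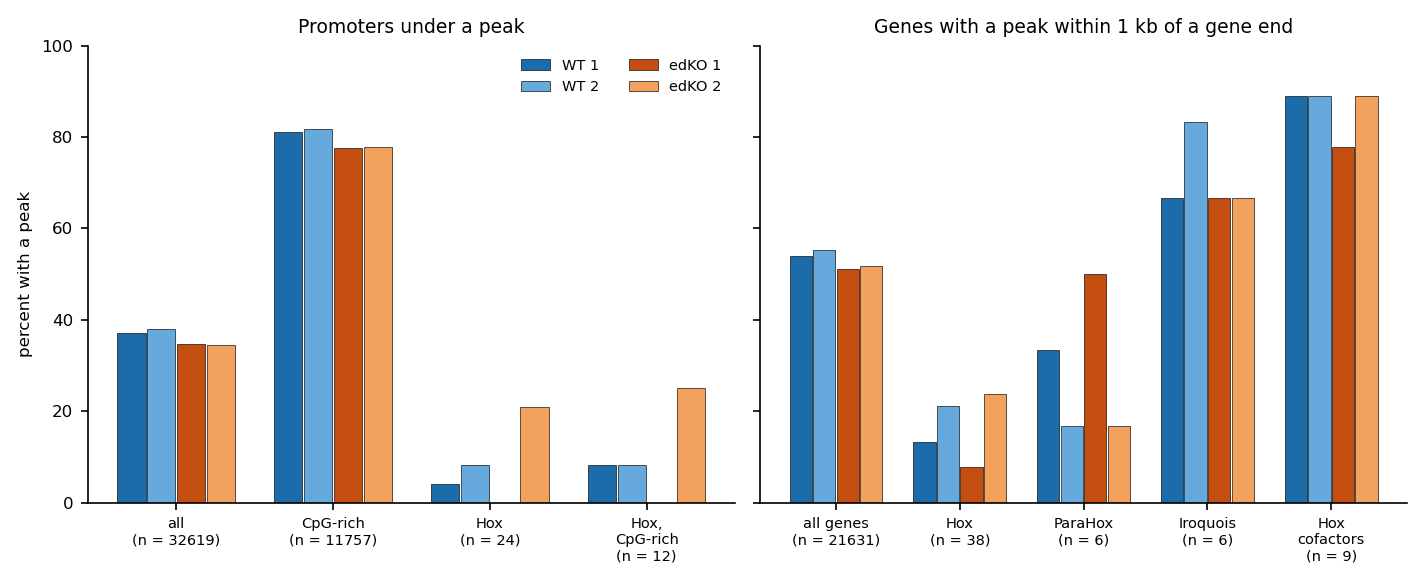
The left panel gives the percent of promoters (300 bases) touched by a peak in each library, for all, CpG-rich, Hox and CpG-rich Hox promoters, and the right panel the percent of genes with a peak within 1 kb of a gene end, for all genes and the homeobox lists. Hox bars stay at or below 25.0% in both panels, while CpG-rich promoters in general lie between 77.6% and 81.6%.

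The clusters also hold microRNA genes, which target Hox transcripts among others. The hairpins of Mir10a, Mir10b, Mir196a-2, Mir196b and Mir615 lay within the Hox windows, and none overlapped a region. Peaks covered at most 1.13% of these windows in a library, so the lack of overlap is no result about these short hairpins. The nearest region was 1707 bp from Mir10a, 9924 bp from Mir10b, 6571 bp from Mir196a-2, 7519 bp from Mir196b and 15165 bp from Mir615.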

How the data were processed

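ATAC-seq of 4 whole newborn hearts (2 WT, 2 edKO, 1 heart per library, grouped by sample title) was analysed from 1 deposited peak list per library. Per the submitters' processing notes the authors' tools were MACS2, Bowtie2 and SAMtools, cutadapt, bcl2fastq and CASAVA, and the builds mm10 and GRCm38. Tool versions, Tn5 shift, handling of duplicates and depth per library were not given in the sources used here. The authors' lists give each peak's fold enrichment (a ratio, summit pileup over that library's local background), the −log10 p and −log10 q-value of its summit, and a score, which was the whole part of 10 times the deposited −log10 p in at least 99.983% of peaks and was not used. All these values are the authors' and rank peaks within a list. Depth was read from the pileup that solves the deposited fold and −log10 p together under a Poisson tail, within 0.001 for every Hox peak.

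Hox genes outside the 38 listed were not analysed here as members. Peaks overlapping by at least 1 bp were merged (Python 3.11.15, pandas 2.3.3, SciPy 1.17.1). Gene positions came from RefSeq, GRCm38.p6, for chromosomes 1 to 19 and X. A region went to the member it overlapped or was nearest to, and to the nearest gene start where it overlapped several. Given by rule were the 3 strongest regions of each cluster by mean percentile, WT-only and edKO-only regions, and members without a region. The other regions were added after their values were seen, so that each is accounted for. No Hox region exceeded 2 kb, which would also have been named. Group means were compared by exact permutation tests over the 4 libraries, and patterns are counts without a test. The scripts were tested on simulated peak lists. Members, lists and tests were chosen with earlier results of these data known. Alternatives were the distance, threshold, list length, overlap, summit windows, replicate block and leaving out each library. A marker list of a further cell type is not reported here.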

Additional observations from a re-analysis of the deposited data

How the results depend on the processing

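All differences are WT minus edKO group means, and with 2 hearts against 2 no exact permutation p fell below 0.333, so no test result could change. The difference in Hox regions called (-1) was 0 over gene bodies alone (0 kb), 3.5 at a −log10 p of at least 10, 0.5 without the 3 regions beyond the 3′ end of Hoxa2 (an alternative chosen after seeing the data, as were those for gene ends and promoters), -8.5 with lists of equal length, and -6 (without edKO 1) to 3 (without edKO 2) on leaving out each library. Hox peaks per 1000 (-0.201) turned to 0.142 at −log10 p of at least 10, were -0.313 with lists of equal length and ran from -0.388 (without edKO 1) to -0.0148 (without edKO 2) on leaving out each library. Covered bases (-27.5) turned to 99.5 at 0 kb, 9 at 20 kb, 1164.5 at −log10 p of at least 10 and 335 without the regions beyond Hoxa2, were -1741 with lists of equal length and -402 with summit windows, and ran from -1312.5 (without edKO 1) to 1257.5 (without edKO 2), with 781 without WT 1. WT-only regions (2) came to 1 at 0 kb, 1 at −log10 p of at least 10, and 3 to 6 (without WT 1) on leaving out each library. edKO-only regions (1) came to 0 at −log10 p of at least 10, 4 of 8 with lists of equal length, and 2 (without WT 2) to 8 (without edKO 1) on leaving out each library. For WT-only and edKO-only regions, the share over all regions near genes was not computed at these settings. Regions called in all 4 libraries (3) came to 2 at 0 kb, with lists of equal length, with an overlap of 50 percent of the shorter peak and with summit windows. They came to 0 at −log10 p of at least 10 and to 4 to 5 (without WT 2) over the 3 libraries left when each was left out. Gene ends called in all 4 (2) came to 0 at −log10 p of at least 10 and 0 with lists of equal length, and to 2 to 3 on leaving out each library. Promoters called in all 4 stayed at 0 under the 6 alternatives run for them. As edKO 1 called 0 of the listed Hox promoters, only leaving out edKO 1 could have changed that count. Apart from the shorter lists and fewer libraries that these settings make, the cause was not tested. With the replicate number as a block (exact sign-flip permutation, smallest p 0.5), the differences were -1 regions (p = 1), -0.201 per 1000 (p = 0.5) and -27.5 bp (p = 1). The labels do not say that numbers pair the hearts, and the deviations of same-numbered hearts correlated at -0.0124 over 53140 regions. Pileups of 8 to 25 fragments limit what a missing Hox call can show.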
